A study of Mus musculus with 10 samples.

Results

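Emx1, Emx2, Pax6, Dmrt3, Dmrta2, Nr2f1, Nr2f2, Sp8 and Nr2e1 are transcription factors that pattern the developing cerebral cortex. These 9 genes were chosen by symbol, with earlier results of these data known. Each matched 1 of the 52227 genes counted in the cortical hem (CH) of e13.5 mouse embryos. A gene was tested where 3 or more libraries held 10 or more counts of it, and all 9 factors were among the 21664 tested genes. In the 10 libraries, the raw counts of these factors ran from 363 for Sp8 to 7076 for Emx2.

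Laser-captured CH came from 5 wild-type embryos and from 5 that carried the drJ allele on both copies of Lmx1a (Lmx1a-/-), and the sections of an embryo gave 1 library. The drJ allele is a point mutation whose protein is inactive but still present, so the Lmx1a transcript remains countable and its level does not check the genotype. The mice were of a mixed C57Bl6, FVB and CD1 background, and males and females were both used. The boundaries of the CH were read from Lmx1a immunostaining of alternate sections, and the sections in between were captured in bright light. Lmx1a stood at 79.8, 80.0, 45.6, 59.7 and 90.8 normalized CPM (counts scaled to a common library size) in wild-type embryos 1 to 5 and at 89.9, 102, 122, 145 and 111 CPM in Lmx1a-/- embryos 1 to 5.

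The CH is a strip of neuroepithelium at the dorsal midline of the telencephalon that secretes Wnt and Bmp proteins and lies between the choroid plexus and the hippocampal part of the cortex. Cortical progenitors read their position from graded transcription factors: Emx2, the Dmrt factors and Nr2f1 are known to be higher toward the caudal or medial cortex, whereas Pax6 and Sp8 are higher toward the rostral or lateral cortex. Loss of one of these factors is known to shift the borders between cortical areas, and Emx2, Dmrt3 and Dmrta2 are known to act early at the medial edge, where the hem and the hippocampus form.

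Libraries held between 19145952 and 36462780 counts, of which 20.6% to 27.6% came from mitochondrial genes. Sex was unevenly spread, since Y-linked transcripts were found in all 5 Lmx1a-/- embryos but in only 1 wild-type embryo, embryo 1. Wild-type embryos 2 to 5 instead had Xist at 4399 to 5169 CPM, so the effects of sex and genotype cannot be told apart except through wild-type embryo 1. Of the 13 CH markers, 6 were lower and 1 (Lmx1a) was higher in Lmx1a-/- embryos, with Lmo2 falling from 138 ± 40.5 to 26.7 ± 4.86 CPM (mean ± SD, n = 5). None of the CH markers was at 0 throughout. The summed level of 16 choroid plexus markers was 108 to 381 CPM in wild-type embryos, lowest in wild-type embryo 3, and 77.3 to 142 CPM in Lmx1a-/- embryos. Summed progenitor markers lay between 3324 and 4080 CPM in wild-type and between 4124 and 5210 CPM in Lmx1a-/- embryos. Of these 10 markers only Vim passed (671 ± 121 to 1223 ± 79.6 CPM), 7 had positive and 3 negative log2 fold changes, and their median was 0.067. Red blood cell markers summed to 643 to 1489 CPM in wild-type and 268 to 581 CPM in Lmx1a-/- embryos, and their part in the results was not tested. In such bulk samples, fewer cells of a type and less RNA per cell cannot be told apart.

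Emx2, Dmrt3, Nr2f2 and Nr2e1 rose in the Lmx1a-/- CH by 1.4- to 2.12-fold, and Emx1, Pax6, Dmrta2, Nr2f1 and Sp8 did not pass the test. The quasi-likelihood test of edgeR was fitted to all tested genes, and a gene passed where its false discovery rate (FDR), adjusted over all of them, was below 0.1. Of all tested genes, 4.02% passed, with 1.72% higher and 2.29% lower in Lmx1a-/- embryos. Beside this background, 4 of the 9 factors were higher and 0 were lower at that threshold, and DESeq2 and edgeR's likelihood ratio test gave the same counts. Because the factors were chosen with earlier results known, the contrast with all tested genes is a description, not a test. Each factor also had a wild-type mean above that of 74% to 93% of the tested genes, and the part of level in the calls was not tested. At an unadjusted p under 0.05, 4 factors were higher and 1 was lower, Dmrta2 (FDR = 0.21), beside 3545 of all 21664 tested genes. Over all tested genes, DESeq2 called 976 lower and 790 higher, and the likelihood ratio test 805 lower and 555 higher. The median log2 fold change of the 9 factors was 0.37, beside -0.0049 over all tested genes. The embryos of the genotypes did not overlap for Emx2, Dmrt3 and Nr2f2, and 4.44% of all tested genes were separated in this way. Gene by gene, on log2(CPM + 0.5) values, the two-sided exact permutation p was 0.00794 for Emx2, Dmrt3 and Nr2f2, the smallest that the design allows, 0.0159 for Nr2e1, and between 0.0714 and 0.556 for the other 5. The p-values set the difference between genotypes against the variation between embryos, and in wild type that variation includes both sexes.

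**Figure D1:**
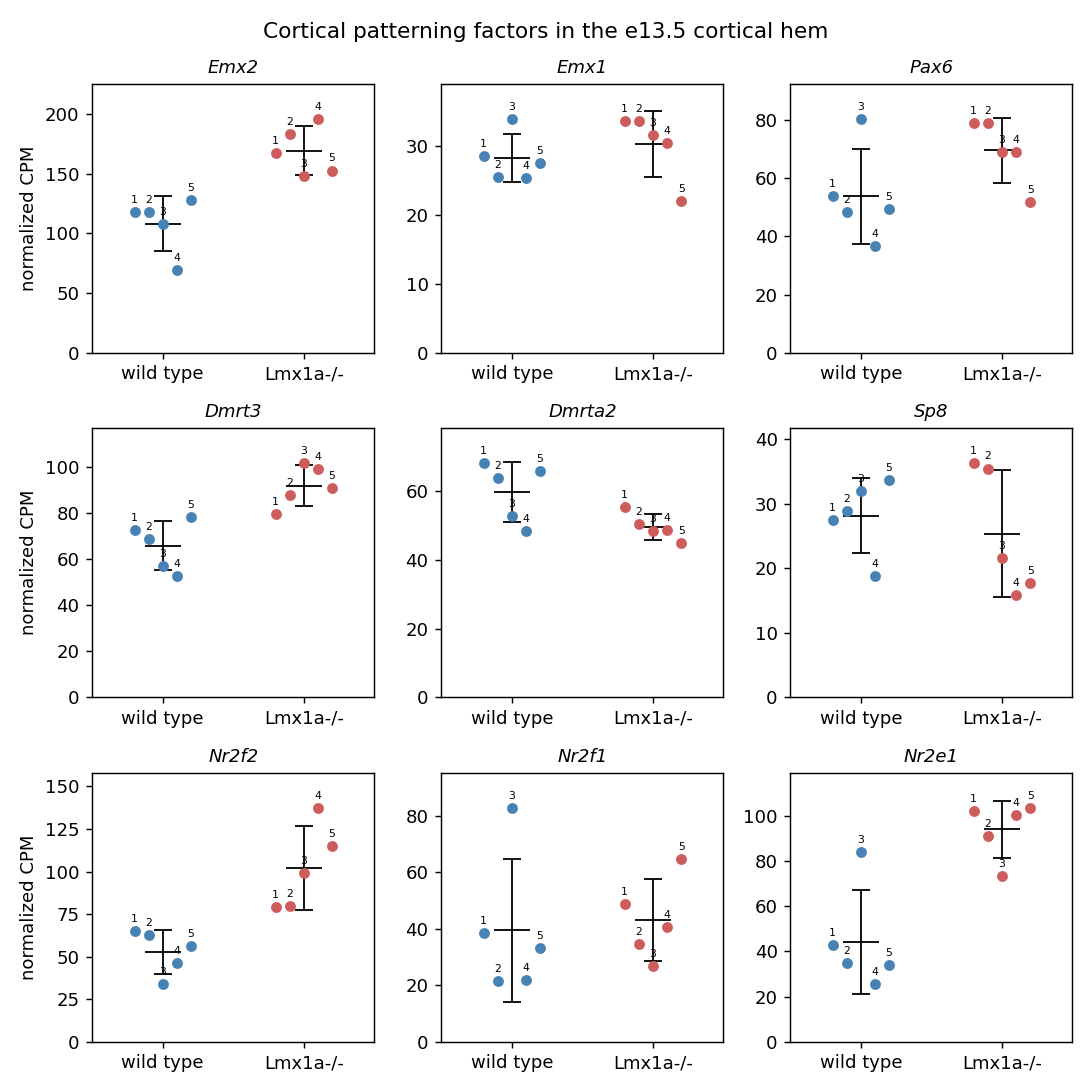
Normalized CPM of each factor in wild-type (blue) and Lmx1a-/- (red) embryos, where each point is an embryo with its number and the bars show the mean ± SD of 5 embryos. Emx2, Dmrt3 and Nr2f2 have no overlap between genotypes, and for Nr2e1 only wild-type embryo 3 reaches the range of the mutants.

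Emx2, a homeobox factor needed for growth of the hippocampus, was the most abundant of the 9. Its level was 118, 118, 108, 68.9 and 128 CPM in wild-type embryos 1 to 5 and 167, 183, 148, 196 and 153 CPM in Lmx1a-/- embryos 1 to 5. The highest wild-type embryo lay below the lowest mutant embryo, and wild-type embryo 4 stood apart on the low side. On average, Emx2 rose from 108 ± 23.1 CPM to 169 ± 20.2 CPM, or by 0.65 on the log2 scale (SE 0.14, 95% interval 0.34 to 0.95, FDR = 0.0356), and this call was lost with the level of Xist, of choroid plexus markers or of progenitor markers as a covariate.

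Emx1, the close relative of Emx2 that marks progenitors and neurons of the dorsal telencephalon, had nearly equal means. Its level was 28.6, 25.6, 34.0, 25.4 and 27.6 CPM in the wild-type and 33.7, 33.7, 31.6, 30.5 and 22.1 CPM in the Lmx1a-/- embryos. The genotypes overlapped, with wild-type embryo 3 the highest and Lmx1a-/- embryo 5 the lowest of all 10. The log2 fold change was 0.10 with a 95% interval of -0.18 to 0.38 (FDR = 0.757).

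Within an embryo, the ratio of Emx1 to Emx2 was lower in mutants. The log2 ratio of their CPM was -2.04, -2.20, -1.67, -1.44 and -2.22 in wild-type and -2.31, -2.44, -2.23, -2.69 and -2.79 in Lmx1a-/- embryos. Every mutant ratio was below every wild-type ratio, although the nearest embryos, wild-type 5 and Lmx1a-/- 3, differed by little. The mean ratio fell by 0.58 on the log2 scale (exact permutation p = 0.00794, two-sided, the smallest p that all assignments of 10 embryos allow). This ratio and those of the other 2 related pairs were compared after their values were seen, and leaving out wild-type embryo 3 gave a difference of -0.52 (exact permutation p = 0.0159).

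Pax6, a paired box factor of lateral and rostral progenitors that is known to oppose Emx2 in area patterning, had a higher mean in mutants without passing the test. Its level was 53.9, 48.3, 80.5, 36.6 and 49.5 CPM in wild-type embryos and 79.0, 79.0, 69.0, 69.1 and 51.9 CPM in Lmx1a-/- embryos. Wild-type embryo 3 was the highest of all 10, Lmx1a-/- embryo 5 was the lowest mutant, and the other 4 wild-type embryos lay at or below 53.9 CPM. The log2 fold change was 0.37 (SE 0.18, 95% interval -0.015 to 0.75, FDR = 0.326). Without wild-type embryo 3 the value was 0.56 and passed the threshold (FDR = 0.0584). The log2 ratio of Pax6 to Emx2, also compared after its values were seen, was -1.03 ± 0.38 in wild-type and -1.29 ± 0.22 in Lmx1a-/- embryos and did not separate the genotypes (difference -0.27, exact permutation p = 0.23).

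Dmrt3 and Dmrta2, also known as Dmrt5, are doublesex-related zinc finger factors that are expressed in medial and caudal cortical progenitors. Dmrt3 stood at 72.6, 68.9, 56.9, 52.7 and 78.3 CPM in wild-type and at 79.8, 88.1, 102, 99.5 and 91.1 CPM in Lmx1a-/- embryos. The genotypes were adjacent without overlapping, the closest pair being wild-type embryo 5 and Lmx1a-/- embryo 1. Its mean rose from 65.9 ± 10.8 CPM to 92.1 ± 8.90 CPM, by 0.48 on the log2 scale (SE 0.11, 95% interval 0.24 to 0.73, FDR = 0.0456). Without Lmx1a-/- embryo 4, Dmrt3 no longer passed (log2 fold change 0.45, FDR = 0.116).

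Dmrta2 instead stood at 68.2, 63.9, 52.8, 48.5 and 66 CPM in wild-type and at 55.3, 50.4, 48.6, 48.7 and 44.8 CPM in Lmx1a-/- embryos. Wild-type embryos 1, 2 and 5 were above all mutants, whereas embryos 3 and 4 lay among them. The log2 fold change was -0.27 (SE 0.11, 95% interval -0.50 to -0.046) and did not pass after adjustment (FDR = 0.21).

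The balance of Dmrt3 and Dmrta2 separated the genotypes. The log2 ratio of Dmrt3 to Dmrta2 was 0.090, 0.11, 0.11, 0.12 and 0.25 in wild-type embryos 1 to 5, and 0.53, 0.81, 1.07, 1.03 and 1.02 in Lmx1a-/- embryos 1 to 5. Wild-type embryos thus held nearly equal CPM of both genes, with an SD of 0.063 between embryos, and all mutants held more Dmrt3. The difference was 0.76 on the log2 scale (exact permutation p = 0.00794), and it lay between 0.71 and 0.85 when each embryo was left out in turn. The chosen scaling of libraries cancels in such a ratio.

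**Figure D2:**
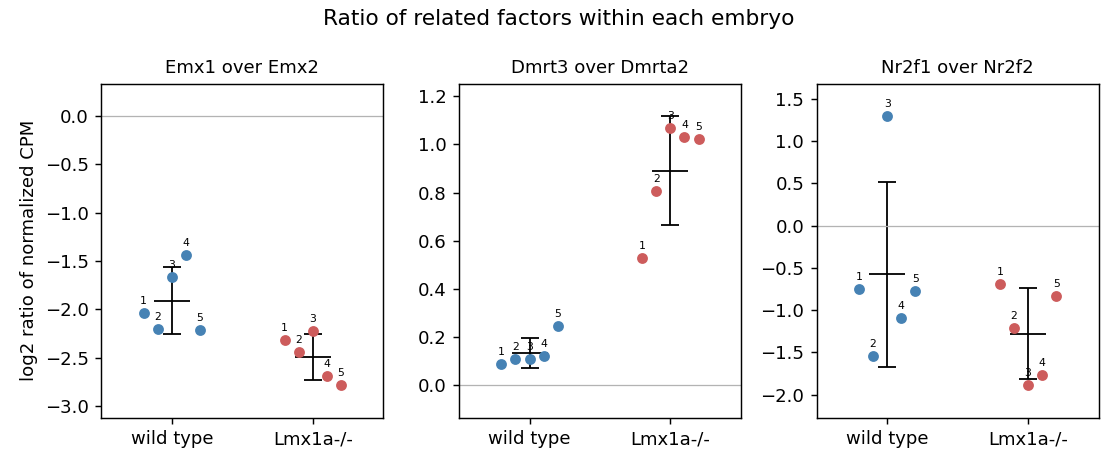
Log2 ratio of the normalized CPM of 2 related factors within each embryo, wild type in blue and Lmx1a-/- in red, with the mean ± SD of 5 embryos and embryo numbers. The genotypes do not overlap for Emx1 over Emx2 or for Dmrt3 over Dmrta2, and they overlap for Nr2f1 over Nr2f2, where wild-type embryo 3 is far above the others.

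Other doublesex-related genes were measured as relatives of these factors. Dmrt3 lies on chromosome 19 at chr19:25610301-25623921 of GRCm38 on the plus strand, and Dmrt1, known for its role in the gonad, ends 5971 bp before it on the same strand. Dmrt1 was at 7.43, 10.5, 6.50, 4.62 and 8.83 CPM in wild-type and at 13.1, 17.0, 17.0, 23.1 and 21.7 CPM in Lmx1a-/- embryos. It rose with no overlap between genotypes (log2 fold change 1.28, SE 0.22, FDR = 0.0084). Dmrt2, which begins 48489 bp after Dmrt3, averaged 0.619 ± 0.709 CPM in wild-type embryos, against 0.122 ± 0.139 CPM in mutants, and did not pass (FDR = 0.339).

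Dmrta1, the closest relative of Dmrta2 by name and family, also rose, its means being 59.5 ± 8.95 and 93.3 ± 22.5 CPM (log2 fold change 0.65, SE 0.16, FDR = 0.0513). Its lowest mutant value, 64.1 CPM in Lmx1a-/- embryo 1, overlapped with 73.5 CPM in wild-type embryo 5. Dmrt1 and Dmrta1 were the 2 that passed among the 19 tested relatives of the 9 factors, a list that also holds Pax, Sp and nuclear receptor genes, and 0 relatives passed as lower (2 at an unadjusted p under 0.05, 2 by DESeq2 and 1 by the likelihood ratio test). The median log2 fold change of these 19 was -0.22. Over all 21664 tested genes, 3545 had an unadjusted p under 0.05.

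Nr2f2 and Nr2f1, also known as COUP-TFII and COUP-TFI, are orphan nuclear receptors. Nr2f1 restrains rostral identity in the cortex, and Nr2f2 is known in the hem, the caudal forebrain and migrating neurons. Nr2f2 was at 64.8, 62.8, 33.7, 46.4 and 56.5 CPM in wild-type and at 78.9, 80.0, 99.3, 138 and 115 CPM in Lmx1a-/- embryos. All mutants exceeded all wild-type embryos, and mutants 3 to 5 were higher than mutants 1 and 2. The mean of Nr2f2 nearly doubled, from 52.8 ± 12.9 CPM to 102 ± 24.7 CPM, which is 0.95 on the log2 scale (SE 0.19, 95% interval 0.55 to 1.36, FDR = 0.0202), which was the smallest FDR of the 9.

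Nr2f1 was at 38.4, 21.5, 82.8, 21.7 and 33.1 CPM in wild-type and at 48.8, 34.5, 26.8, 40.5 and 64.6 CPM in Lmx1a-/- embryos. The genotypes overlapped, and wild-type embryo 3 was above every mutant. The log2 fold change of 0.12 had an SE of 0.34 and a 95% interval of -0.62 to 0.85 (FDR = 0.905), and without wild-type embryo 3 it was 0.58 (FDR = 0.254). It turned negative, to between -0.072 and -0.042, when any of wild-type embryos 2 and 4 and mutant 5 was left out.

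The log2 ratio of Nr2f1 to Nr2f2 did not separate the genotypes. Its mean was -0.57 ± 1.09 in wild-type and -1.28 ± 0.54 in Lmx1a-/- embryos (exact permutation p = 0.23). Wild-type embryo 3 was the only embryo with more CPM of Nr2f1 than of Nr2f2, at a log2 ratio of 1.30, and without it the difference shrank from -0.70 to -0.24 (exact permutation p = 0.476).

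Nr2e1, or Tlx, an orphan nuclear receptor that maintains neural progenitors, had the largest log2 fold change of the 9. It was at 42.9, 34.6, 84.0, 25.4 and 34.2 CPM in wild-type and at 102, 91.0, 73.3, 100.4 and 104 CPM in Lmx1a-/- embryos. Wild-type embryo 3 overlapped with Lmx1a-/- embryo 3, and the other 4 wild-type embryos lay below all mutants. The means were 44.2 ± 23.1 and 94.1 ± 12.6 CPM, and Nr2e1 rose by 1.09 on the log2 scale (SE 0.26, 95% interval 0.53 to 1.64, FDR = 0.0455).

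Leaving out wild-type embryo 3 raised the difference in Nr2e1 to 1.45 (FDR = 0.00025). Leaving out any of wild-type embryos 1 and 2 and mutants 4 and 5 moved its FDR to between 0.104 and 0.114.

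Sp8, a zinc finger factor of rostral patterning, spread more among mutants than between genotypes. It was at 27.5, 28.9, 32.0, 18.8 and 33.7 CPM in wild-type and at 36.3, 35.5, 21.6, 15.9 and 17.7 CPM in Lmx1a-/- embryos. Mutants 1 and 2 were above all wild-type embryos, mutants 4 and 5 were below all of them, and wild-type embryo 4 was the lowest of its genotype. The log2 fold change was -0.15 (SE 0.24, 95% interval -0.66 to 0.35, FDR = 0.804).

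**Figure D3:**
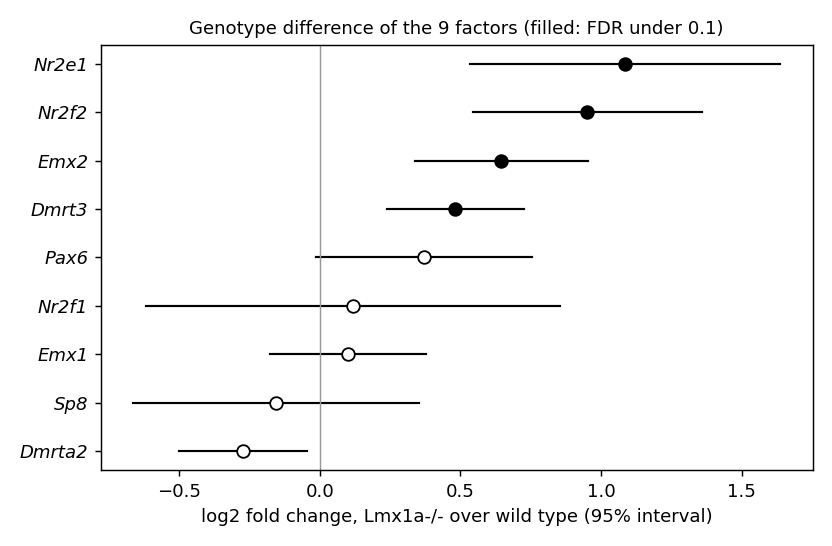
Log2 fold change of Lmx1a-/- over wild-type embryos for the 9 factors, with the 95% interval of the quasi-likelihood fit and filled points for FDR under 0.1. The intervals of Nr2e1, Nr2f2, Emx2 and Dmrt3 lie above 0, that of Dmrta2 lies below 0 from -0.50 to -0.046 without passing the adjusted threshold, and the other 4 span 0.

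Sex and the levels of choroid plexus markers and of progenitor markers moved with genotype. Of the 4 calls at most 1 held when any of them entered the fit. These covariates nearly separate the genotypes, and the loss of calls was not particular to the 9 factors. Of all tested genes, 497 passed as lower and 373 as higher without a covariate. With the Xist level 27 and 4 passed, with the choroid plexus markers 10 and 8, and with the progenitor markers 99 and 36. With the Xist level as a covariate 0 of the 9 factors passed, and the log2 fold changes were 0.50 for Emx2 (FDR = 0.589), 0.35 for Dmrt3 (FDR = 0.632), 0.68 for Nr2f2 (FDR = 0.569) and 1.11 for Nr2e1 (FDR = 0.526). With the mean level of the choroid plexus markers as a covariate, Nr2f2 was at 1.72 (FDR = 0.065), whereas Emx2 at 0.67 (FDR = 0.745), Dmrt3 at 0.77 (FDR = 0.357) and Nr2e1 at 0.23 (FDR = 0.95) did not pass. With the mean level of the progenitor markers as a covariate 0 of the 9 passed, and the values were 0.32 for Emx2 (FDR = 0.724), 0.33 for Dmrt3 (FDR = 0.676), 0.54 for Nr2f2 (FDR = 0.566) and 0.76 for Nr2e1 (FDR = 0.692). Only 1 wild-type embryo had Y-linked transcripts, which is too few for a test within that sex. Against the 5 mutants, that embryo gave differences of 0.52 for Emx2, 0.34 for Dmrt3, 0.65 for Nr2f2 and 1.13 for Nr2e1 on the log2 scale.

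The embryos differed from each other in ways shared by several factors. Wild-type embryo 4 was the lowest wild-type embryo for 7 of the 9 factors, and wild-type embryo 3 was the highest for Emx1, Pax6, Nr2f1 and Nr2e1 but the lowest for Nr2f2. Wild-type embryo 3 also had the lowest Lmx1a, the lowest summed choroid plexus markers of its genotype, and Neurod6, a gene of cortical neurons, at 59.6 CPM against 2.66 to 5.94 CPM in the other wild-type embryos. Neurod6 was picked from 10 neuron markers after their values were seen. Most but not all of the others were also highest in wild-type embryo 3 among the wild-type embryos. The part of these differences in the factor levels of wild-type embryo 3 was not tested. Among the mutants, no embryo was the lowest or the highest for more than 3 of the 9 factors.

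**Figure D4:**
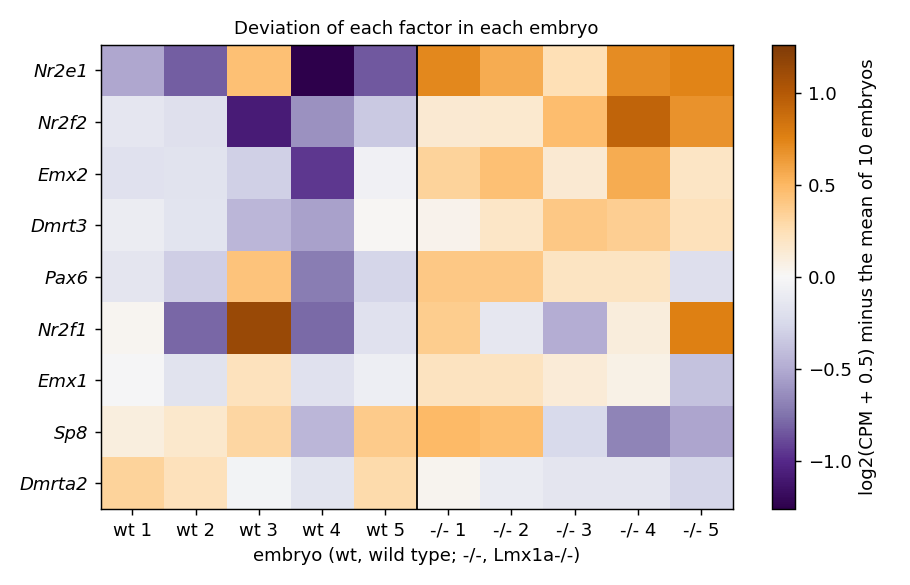
Deviation of each factor in each embryo from its mean over 10 embryos on the log2(CPM + 0.5) scale, with purple below and orange above the mean and factors ordered by log2 fold change. Nr2e1, Nr2f2, Emx2 and Dmrt3 are above their means in all 5 mutants, and wild-type embryo 3 departs from the other wild-type embryos in Nr2e1, Pax6 and Nr2f1.

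Levels of different genes were compared per kb of annotated exon. In wild-type embryos the order of the means was Emx2 at 36.0 ± 7.68 CPM per kb, Dmrt3 at 27.0 ± 4.40, Dmrta2 at 20.5 ± 2.98, Emx1 at 12.9 ± 1.60, Nr2e1 at 11.9 ± 6.23, Nr2f1 at 7.76 ± 4.97, Sp8 at 6.18 ± 1.27, Nr2f2 at 6.13 ± 1.49 and Pax6 at 4.60 ± 1.39 CPM per kb. Neighbours in this order overlapped between embryos, except that Dmrta2 lay above Emx1 in all of them. In Lmx1a-/- embryos Nr2e1 came next at 25.4 ± 3.41 CPM per kb, after Emx2 at 56.4 ± 6.74 and Dmrt3 at 37.7 ± 3.64, and these 3 and Dmrta2, the following one at 17.0 ± 1.31, did not overlap with each other. Annotated exons sum to 11.694 kb for Pax6 and 8.625 kb for Nr2f2 over all their transcripts, so levels per kb of these 2 may be too low where only short transcripts are made.

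Several of these factors have a gene on the opposite strand. The strand setting of the counting was not stated, so reads in shared exons, and unspliced reads of one gene in exons of the other, cannot be told apart. Emx2os begins inside Emx2 (chr19:59458372-59465357, plus strand) and shares 264 exon bases with it. It stood at 23.6, 22.0, 19.7, 13.3 and 26.1 CPM in wild-type and at 28.2, 38.0, 39.0, 43.0 and 33.5 CPM in Lmx1a-/- embryos. Emx2os rose with Emx2 and without overlap between genotypes (log2 fold change 0.79, SE 0.17, FDR = 0.0271), and wild-type embryo 4 was the lowest for both.

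Nr2f2 (chr7:70351944-70366735, minus strand) is overlapped by the noncoding gene B130024G19Rik, which runs the other way from chr7:70364910 and shares 643 exon bases with it. B130024G19Rik was at 5.82, 5.82, 3.85, 2.75 and 5.10 CPM in wild-type and at 12.5, 11.6, 17.8, 29.9 and 28.6 CPM in Lmx1a-/- embryos. The means were 4.67 ± 1.34 and 20.1 ± 8.72 CPM, and the rise of 2.10 on the log2 scale (SE 0.30, FDR = 0.0028) came with no overlap. As for Nr2f2, the highest 2 embryos were mutants 4 and 5.

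A830082K12Rik, opposite Nr2f1, shares 123 exon bases with it and did not pass (log2 fold change 0.13, SE 0.25, FDR = 0.844). As for Nr2f1, wild-type embryo 3 had its highest level, 29.7 CPM. Dmrta2os, whose start lies 240 bp from that of Dmrta2 (chr4:109978053-109983687, plus strand) and which shares no exon base with it, averaged 12.4 ± 1.87 CPM in wild-type embryos, against 8.29 ± 2.67 CPM in mutants (log2 fold change -0.57, SE 0.22, FDR = 0.199). Pax6os1 was near the limit of detection, at 0.297 ± 0.218 and 0.383 ± 0.255 CPM. Ostm1, which begins 190 bp from the start of Nr2e1 in the opposite direction, did not pass either (log2 fold change 0.41, SE 0.15, FDR = 0.196), so of the tested neighbours within 5000 bp only those opposite Emx2 and Nr2f2 passed.

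**Figure D5:**
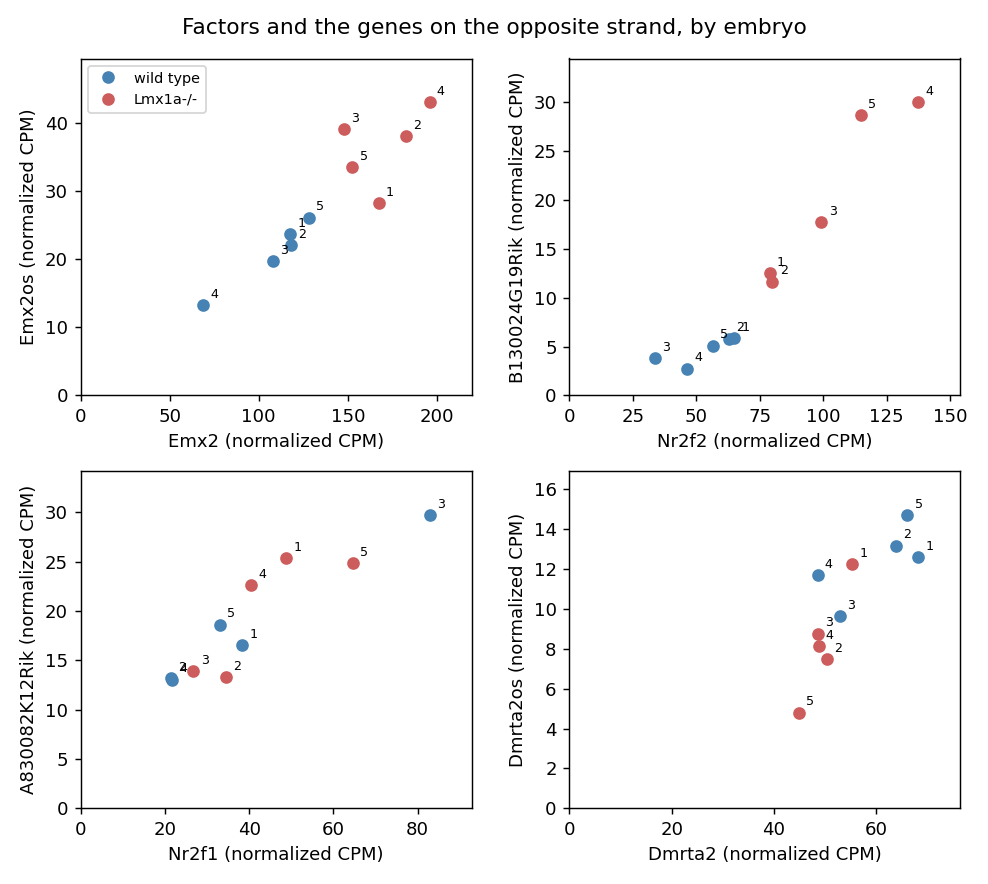
Normalized CPM of 4 factors (horizontal axes) against the gene on the opposite strand (vertical axes) in each numbered embryo, wild type in blue and Lmx1a-/- in red. Both genes of the Emx2 and Nr2f2 pairs are higher in all mutants than in any wild-type embryo, while the genotypes overlap in the Nr2f1 and Dmrta2 pairs.

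The stretches before the starts of Dmrta2, Nr2f2 and Nr2e1 are shown because 2 of these genes rose and 2 of the stretches also lead into a gene on the opposite strand. They come from the promoter windows of RefSeq for GRCm38.p6, which run from 250 bp before to 50 bp after a start, and stop at any transcribed neighbour that begins there. The Nr2f2 stretch is chr7:70366747-70366996 on the minus strand. It lies inside B130024G19Rik, which runs from chr7:70364910 to chr7:70489972 on the plus strand. The Nr2e1 stretch is chr10:42583633-42583821 on the minus strand up to the start of Ostm1. The Dmrta2 stretch is chr4:109977814-109978024 on the plus strand from the start of Dmrta2os. Capitals mark TAAT on either strand (TAAT or ATTA), the core that many homeodomain proteins, the class to which Lmx1a belongs, bind.
Nr2f2: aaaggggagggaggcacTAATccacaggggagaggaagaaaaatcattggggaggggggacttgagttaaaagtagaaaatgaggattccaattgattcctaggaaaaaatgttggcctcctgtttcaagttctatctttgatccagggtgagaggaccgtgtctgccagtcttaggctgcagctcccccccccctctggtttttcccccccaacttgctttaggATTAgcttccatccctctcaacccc
Nr2e1: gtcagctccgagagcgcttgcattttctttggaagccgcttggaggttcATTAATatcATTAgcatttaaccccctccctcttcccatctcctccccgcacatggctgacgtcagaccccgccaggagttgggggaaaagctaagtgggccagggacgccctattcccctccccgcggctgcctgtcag
Dmrta2: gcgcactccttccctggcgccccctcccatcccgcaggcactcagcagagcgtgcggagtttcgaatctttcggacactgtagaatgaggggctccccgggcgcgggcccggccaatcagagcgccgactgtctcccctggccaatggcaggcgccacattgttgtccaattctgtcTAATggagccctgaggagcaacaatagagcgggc

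The Nr2f2 stretch has 2 matches, the Nr2e1 stretch 3, of which the first 2 overlap, and the Dmrta2 stretch 1. In the whole windows of 300 bp, Nr2e1 has 5 matches, and 6.9% of all 32851 windows have 5 or more. Of the 13 windows of the 9 factors, 10 have a match, and 58.0% of all windows do. A match of so short a core is a description of the letters, not a binding site.

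The genes most alike in their pattern over the 10 embryos were found by the mean absolute difference in log2 CPM after each gene was centred on its own mean. This centring keeps the genotype difference, so genes that shift alike between genotypes come out alike. For scale, the factors' own mean absolute deviations were 0.33 for Emx2, 0.25 for Dmrt3, 0.47 for Nr2f2 and 0.69 for Nr2e1. The gene most like Nr2f2 was Lmx1a, at a mean difference of 0.14, followed by Gm14267 at 0.16. Emx2 was most like Stard9 at 0.080 and Map7d2 at 0.11, Dmrt3 most like Masp1 at 0.070 and Zfp27 at 0.084, and Nr2e1 most like Pantr1 at 0.16 and Id4 at 0.21. The mean profile of all 9 factors was most like Sox9 at 0.075 and Spag9 at 0.089. Among the factors themselves, Emx2 and Dmrt3 were each most like the other, at 0.17, and so were Emx1 and Pax6, at 0.19.

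Other patterning genes, in lists written with earlier results of these data known, moved in both directions. Of 23 other telencephalic patterning factors, 4 were higher and 1 was lower. Fezf2, a zinc finger factor of the rostral forebrain and of deep-layer neurons, had means of 88.3 ± 11.6 and 212 ± 28.1 CPM and rose (log2 fold change 1.26, SE 0.11, FDR = 0.00012). Gli3, which keeps the telencephalon dorsal, had means of 446 ± 31.7 and 602 ± 56.2 CPM and rose (0.43, FDR = 0.012). Six3 was also higher (1.11, FDR = 0.0815), and Id2 fell from 54.4 ± 8.61 to 36.6 ± 6.08 CPM (-0.57, FDR = 0.0452).

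Dlx5, a subpallial factor that marks the ventral telencephalon, rose without overlap between genotypes (means 7.72 ± 3.99 and 26.8 ± 10.8 CPM, log2 fold change 1.81, FDR = 0.021). Of 6 genes of the antihem, the lateral counterpart of the hem, 0 passed by edgeR or DESeq2, 0 had an unadjusted p under 0.05, and the smallest FDR was 0.536, for Nrg3.

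Among 15 tested patterning signals and their readouts, Wnt2b (means 151 and 74.3 CPM, log2 fold change -1.02, FDR = 0.012) and Bmp7 (means 108 and 57.1 CPM, -0.91, FDR = 0.0228) fell and 0 rose. At an unadjusted p under 0.05, 6 were lower and 2 higher. The counts were 4 lower and 2 higher by DESeq2 and 3 lower and 2 higher by the likelihood ratio test. For scale in this and the next lists, 3545 of all 21664 tested genes had an unadjusted p under 0.05. Over all tested genes, DESeq2 called 976 lower and 790 higher, and the likelihood ratio test 805 lower and 555 higher. Spry1, a target of Fgf signaling, did not pass (0.53, FDR = 0.13). Of 8 genes regulated by Pax6 in cortical progenitors, 0 passed by the quasi-likelihood test and 7 had positive log2 fold changes. At an unadjusted p under 0.05, by DESeq2 and by the likelihood ratio test alike, 3 were higher and 1 was lower. The smallest FDR of this list in the quasi-likelihood test was 0.111, for Cdh4. Eomes (Tbr2), a factor of intermediate progenitors and, in the CH, of Cajal-Retzius neurons, was at -0.51 (FDR = 0.129). The authors counted Tbr2 among the genes lower in the Lmx1a-/- CH, and also reported less of it by immunostaining and after Lmx1a knockdown. Of 12 cofactors of the 9 factors, 0 passed (1 was higher by DESeq2, and 3 were higher and 1 lower at an unadjusted p under 0.05), and the smallest FDR was 0.144, for Zfpm2, which binds Nr2f2.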

How the data were processed

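RNA of laser-captured CH was sequenced from 10 embryos. The authors assessed reads with FastQC 0.11.8, trimmed them with Trimmomatic, aligned them to GRCm38 with STAR 2.7.1a and counted reads per gene with HTSeq 0.11.2, and they deposited these counts without filtering or normalization. Genotypes and embryo numbers come from the labels. Of 52508 rows, 281 exact repeats were dropped. Genes that reached 10 counts in 3 or more libraries were kept, scaled by TMM and tested with edgeR 4.0.16 (quasi-likelihood, trended dispersion, legacy = TRUE, no covariate) in R 4.3.3, with Benjamini-Hochberg adjustment over all tested genes. The SE is the size of a log2 fold change divided by the square root of F. Ratios were compared with exact permutation tests over all assignments of embryos. The fit was checked on simulated counts. Alternatives were other scaling, filters, tests (DESeq2 1.42.0 among them), covariates, a block, and each embryo left out. Positions are those of GENCODE M21, counted from 1. All 9 factors, antisense and overlapping neighbours, list members past the threshold or otherwise among the 3 smallest p, the 2 most alike genes, and Lmx1a, Xist and Y-linked genes could be named, while Dmrt2 and Neurod6 were named after their values were seen. A few list genes are not reported here. The factors and lists were chosen with earlier results of these data known.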

Additional observations from a re-analysis of the deposited data

Results flagged for a closer look

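Among the 18 groups of 5 embryos (9 factors in both genotypes), Dixon's test at the 95% level set 2 embryos apart from the rest of their group, and chance sets about 1 in 20 groups apart. Nr2f1 in wild-type embryo 3, at 82.8 CPM, was far above the other wild-type embryos, with a gap of 0.725 of the group's range. Emx1 in Lmx1a-/- embryo 5, at 22.1 CPM, was far below the other mutants, with a gap of 0.721 of the range.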

How the results depend on the processing

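No pseudocount enters the fit, and it was changed for the permutation tests only. Changes of scaling, of the filter on low counts and of the pseudocount left each factor in its direction and on its side of the threshold, as did the DESeq2 Wald test, edgeR's likelihood ratio test and its newer dispersion method. With robust dispersions, Nr2e1 was at 1.09 with an FDR of 0.104. The covariates, which nearly separate the genotypes, had the most effect, and the cause was not tested. With the Xist covariate 0 factors passed (Emx2 0.50, Dmrt3 0.35, Nr2f2 0.68, Nr2e1 1.11), and 27 lower and 4 higher genes passed of all tested. With the choroid plexus covariate 1 factor passed, Nr2f2, while Emx2 was at 0.67, Dmrt3 at 0.77 and Nr2e1 at 0.23, Emx1 (-0.18), Pax6 (-0.17) and Nr2f1 (-0.90) changed sign, and 10 lower and 8 higher genes passed. With the progenitor marker covariate 0 factors passed (Emx2 0.32, Dmrt3 0.33, Nr2f2 0.54, Nr2e1 0.76), Nr2f1 turned to -0.35, and 99 lower and 36 higher genes passed. The fit of only the embryos that had Y-linked transcripts holds 1 wild-type embryo, assumed to vary like the mutants, so its counts (1 factor higher, with Emx2 at 0.52, Dmrt3 at 0.34 and Nr2f2 at 0.65, and 86 lower and 44 higher genes) carry no call.

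Embryo numbers do not pair the samples, since same-numbered embryos had correlations of deviations between -0.136 and 0.0332 and 0 of 10 embryos correlated best with their own number. The fit with a replicate block had 353 lower and 248 higher genes, and Dmrt3 was at 0.49 with an FDR of 0.12. DESeq2 called 976 lower and 790 higher genes, the likelihood ratio test 805 lower genes, and an FDR under 0.05 left 251 lower and 197 higher genes.

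With each embryo left out in turn, 2 to 5 factors were higher and 0 lower, with 261 to 604 lower and 190 to 455 higher genes of all tested. The log2 fold changes were 0.056 to 0.20 for Emx1, 0.52 to 0.71 for Emx2, 0.25 to 0.56 for Pax6, 0.41 to 0.55 for Dmrt3, -0.34 to -0.22 for Dmrta2, -0.072 to 0.58 for Nr2f1, 0.82 to 1.04 for Nr2f2, -0.32 to -0.028 for Sp8 and 0.93 to 1.45 for Nr2e1. Emx2 and Nr2f2 passed in all 10 of these fits, Dmrt3 in 9 and Nr2e1 in 6. Without Lmx1a-/- embryo 4, 2 factors were higher. Nr2f1 was at -0.044 without wild-type embryo 2 and at -0.042 without wild-type embryo 4.

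The lowest raw count of any factor in a library was 363. The 95% intervals of the 5 factors that did not pass reach 0.85 in size.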
